A study of Rattus norvegicus with 16 samples.

Results

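The genes of the rat major histocompatibility complex (MHC), which rats carry under the name RT1, were followed in liver together with the genes that load and transport antigenic peptides. Members were the genes whose symbol starts with RT1- (39 genes), plus Cd74, B2m, Tap1, Tap2, Tapbp, Ciita and Nlrc5. They were 46 of the 22587 genes in the deposited table, and all 46 matched a symbol in RefSeq. A mean of at least 14.7 normalized read counts over the 16 libraries, which is 1 count per 1000000 at the median library total, was required for testing, and 31 members reached it. The other 15 were too low to test, and 4 of those had 0 reads in all libraries. RT1-CE3, at a mean of 14.3, stood just under the limit, and RT1-M2, at 35.6, was the nearest member above it. No member was all-or-none within a group, that is, at 0 reads in 1 library and at 100 or more in another, whereas 41 of the 12791 genes tested were.

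Livers came from male rats aged 13 weeks of the strain that the labels spell Wistar-Wyoto. Rats labelled SHAM and rats with both adrenal glands removed (ADREX, labelled Total Bilateral Adrenalectomy) were held for 4 hours in air or in 0.8 ppm ozone, and each of the 4 groups had 4 libraries: SHAM air 1 to 4, SHAM ozone 17 to 20, ADREX air 65 to 68 and ADREX ozone 81 to 84. In the treatment field of the labels, the 4 ADREX libraries titled air also carry ozone. The titles, which match the stated design, were used for the groups. The labels name no other allele, agent or hormone replacement, and none is assumed. They do not say whether each library came from a separate rat, so p-values measure the spread between these libraries.

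MHC class I molecules display peptides made inside a cell to CD8 T cells and are found on nearly all cells, including hepatocytes. MHC class II molecules display peptides taken up from outside to CD4 T cells and are normally made by Kupffer cells, the resident macrophages of the liver, and by dendritic cells and B cells. Class I needs B2m as its light chain, the Tap1 and Tap2 peptide pump and the tapasin bridge made by Tapbp. Class II chains are guarded by the invariant chain Cd74, which RT1-DM replaces with peptide. Ciita and Nlrc5 are the transactivators that switch on the class II and the class I genes, respectively. Glucocorticoids from the adrenal cortex are known to restrain antigen presentation. In bulk liver, fewer cells of a type and less RNA per cell cannot be told apart.

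Ciita acts through factors bound to a shared promoter layout known as the X and Y boxes, shown here for the 4 class II chains tested. Between ADREX and SHAM rats, RT1-Da passed the test below in neither exposure. Cd74, which passed it in both, is not shown. The sequences are the 140 bases before the transcription start in the RefSeq annotation of build GRCr8, read 5′ to 3′ on the gene's strand. The 4 windows lie on chromosome 20 at chr20:4515275-4515414 (RT1-Da, plus strand), chr20:4560163-4560302 (RT1-Db1, minus strand), chr20:4576917-4577056 (RT1-Ba, plus strand) and chr20:4604119-4604258 (RT1-Bb, minus strand). Capitals mark ATTGG, the Y box read on the gene's strand, AGCAAC, the core of the X1 box, and TGACGTCA, the full X2 box.
RT1-Da: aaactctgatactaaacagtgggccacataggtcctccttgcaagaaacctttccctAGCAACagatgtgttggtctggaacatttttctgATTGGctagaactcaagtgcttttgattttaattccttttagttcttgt
RT1-Db1: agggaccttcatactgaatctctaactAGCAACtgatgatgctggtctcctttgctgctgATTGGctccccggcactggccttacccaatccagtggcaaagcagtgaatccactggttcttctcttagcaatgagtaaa
RT1-Ba: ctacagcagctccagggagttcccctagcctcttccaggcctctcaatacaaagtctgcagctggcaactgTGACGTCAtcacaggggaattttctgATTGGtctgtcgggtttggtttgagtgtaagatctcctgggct
RT1-Bb: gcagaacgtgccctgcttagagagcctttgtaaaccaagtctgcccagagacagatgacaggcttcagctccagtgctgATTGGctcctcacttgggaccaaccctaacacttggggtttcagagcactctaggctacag
The Y box began 49 bases before the start in RT1-Da, 80 in RT1-Db1, 43 in RT1-Ba and 61 in RT1-Bb. The X1 core stood upstream of it at 83 bases in RT1-Da and 113 in RT1-Db1, and the full X2 box at 69 bases in RT1-Ba, with no overlap between motifs. RT1-Db1 held another Y box on the opposite strand at 55 bases. Over both strands, ATTGG was in 9 of the 10 class II members with a window, all but Cd74. It was also in 14 of 25 class I members and in 22.3% of all 33469 windows of this length. AGCAAC, a motif chosen after the sequences were seen, was in 4 class II members (Cd74, RT1-DOb, RT1-Da and RT1-Db1), 1 class I member and 7.09% of all windows. TGACGTCA was in 1 class II member, no class I member and 1.30% of all windows. The core of the interferon-stimulated response element was in no class II window, in 4 class I members (RT1-S3, Tap1, Tap2 and Tapbp) and in 1.89% of all windows. These are matches of letters, not bound sites.

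Before any result, 2 features of the libraries bear on the values. A list of 10 hepatocyte genes summed to between 118815 and 214408 reads per 1000000 (RPM), as befits liver, and was highest in SHAM air 2, SHAM air 4 and ADREX ozone 84, at 206543, 211758 and 214408. A list of 25 neuron and oligodendrocyte genes, which liver should barely express, summed to between 45.6 and 4677 RPM and was highest in ADREX ozone 82, SHAM ozone 18 and ADREX ozone 81, at 4677, 2923 and 1930. Its 23 genes tested had a median log2 difference of 2.06 between ADREX and SHAM rats both in air and under ozone, and none of them passed the test (2 and 9 had an unadjusted p under 0.05). Each count of members below was therefore also made without each of these sets of 3 libraries, a choice made after the data were seen. RT1 class I genes include close copies of one another, though their likeness was not measured here. How reads matching several of them were assigned is not given in the sources used here, so the split between single RT1 class I genes is uncertain. Recovered library totals ranged from 8372891 to 14096246 reads.

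Adrenalectomy was accompanied by higher class II transcripts in both exposures. The question these comparisons answer is how the liver of adrenalectomized rats differed from that of SHAM rats in the same atmosphere. In them, a rise or fall in air or under ozone is ADREX against SHAM within that atmosphere, not a change from air to ozone. In air, 3 class II members rose (RT1-Bb, Cd74 and RT1-Db1) and 1 class I member, RT1-N2, fell, by limma with Benjamini-Hochberg adjustment over 12791 genes at an adjusted p under 0.05. These 4 of 31 members stand beside 3.53% of all genes called in that comparison (1.49% up and 2.03% down). Under ozone, 5 of the 31 members rose (RT1-Db1, RT1-Bb, RT1-N3, Cd74 and RT1-Ba) and none fell. Of all genes, 12.5% were called there (6.04% up and 6.48% down). An unadjusted p under 0.05 was found for 11 of the 31, beside 31.2% of all genes. In either direction, both counts of members under ozone were thus near the share over all genes. Of the 7 class II members tested, all 7 had a log2 change above 0 in both comparisons, against 54.1% of all genes in air and 59.2% under ozone. Their median log2 change was 0.92 in air and 0.71 under ozone, where the median of all genes was 0.04 and 0.11. The 22 class I members tested had medians of 0.01 and 0.16.

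RT1-Bb and RT1-Ba encode the beta and alpha chains of the RT1-B class II molecule. RT1-Bb was at 513, 388, 439 and 335 normalized counts in SHAM air 1 to 4 and at 527, 498, 458 and 454 in SHAM ozone 17 to 20. It was at 1087, 785, 669 and 696 in ADREX air 65 to 68 and at 1009, 830, 945 and 681 in ADREX ozone 81 to 84. Every ADREX library lay above every SHAM library. The log2 change, taken throughout on the log2(normalized count + 1) scale, was 0.94 ± 0.18 (SE, adjusted p = 0.00840) in air and 0.82 ± 0.18 (adjusted p = 0.00793) under ozone, or 1.92-fold and 1.77-fold. RT1-Ba was at 777, 521, 604 and 554 in SHAM air and at 764, 948, 752 and 605 in SHAM ozone. In ADREX air it was at 1579, 1250, 844 and 1037, and in ADREX ozone at 1833, 1428, 1470 and 770. The air groups did not overlap, while ADREX ozone 84 fell inside the SHAM ozone range. RT1-Ba was higher in ADREX than in SHAM rats under ozone by 0.79 ± 0.25 (adjusted p = 0.0469). In air its value of 0.92 ± 0.25 just missed the threshold (adjusted p = 0.0519).

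RT1-Da and RT1-Db1 encode the alpha and beta chains of RT1-D, the rat counterpart of human HLA-DR. RT1-Db1 was at 479, 281, 399 and 329 normalized counts in SHAM air and at 408, 422, 337 and 431 in SHAM ozone. It was at 793, 644, 526 and 692 in ADREX air and at 953, 878, 908 and 616 in ADREX ozone, so no ADREX library reached down into the SHAM range. It rose by 0.85 ± 0.19 in air (adjusted p = 0.0200) and by 1.05 ± 0.19 under ozone (adjusted p = 0.00263), the latter a 2.08-fold difference. RT1-Da varied widely between libraries of 1 group. It was at 2540, 949, 3234 and 917 in SHAM air and at 2872, 3812, 3618 and 2447 in SHAM ozone. In ADREX air it was at 6544, 5296, 2855 and 7298, and in ADREX ozone at 6284, 9658, 5350 and 2123. ADREX air 67 and ADREX ozone 84 overlapped with SHAM libraries, and neither difference passed the test: 1.66 ± 0.46 in air (adjusted p = 0.0568) and 0.71 ± 0.46 under ozone (adjusted p = 0.304). Another beta chain, RT1-Db2, had at most 3 reads in a library, and RT1-Ha at most 2.

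**Figure D1:**
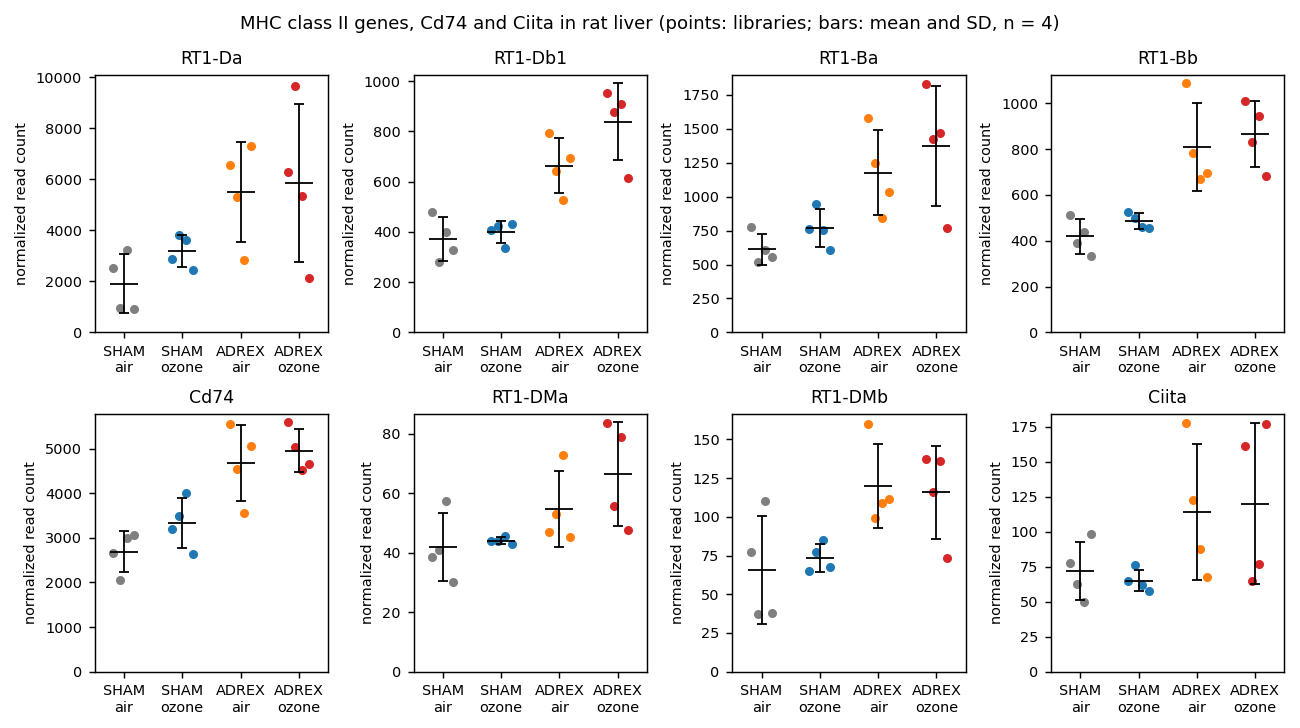
Normalized read count (y axes, linear, from 0) of the RT1-D and RT1-B chains, Cd74, RT1-DMa, RT1-DMb and Ciita in each library (points) of the 4 groups, with the mean and SD (n = 4). The ADREX libraries of RT1-Bb and RT1-Db1 lie above all SHAM libraries, while RT1-Da spreads from 2123 to 9658 in ADREX ozone.

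Cd74, the invariant chain that escorts new class II molecules, followed the chains. It was at 2656, 2059, 3006 and 3056 normalized counts in SHAM air and at 3193, 3489, 4011 and 2647 in SHAM ozone. It was at 5549, 4543, 3550 and 5053 in ADREX air and at 5605, 5036, 4532 and 4654 in ADREX ozone. Within each exposure the ADREX and SHAM libraries did not overlap. Cd74 rose by 0.79 ± 0.18 in air (adjusted p = 0.0199, 1.73-fold) and by 0.58 ± 0.18 under ozone (adjusted p = 0.0401). Of the 31 members tested, 4 in each exposure were higher in ADREX without overlap. In air they were Cd74, RT1-Ba, RT1-Bb and RT1-Db1, beside 4.24% of all genes. Under ozone they were Cd74, RT1-Bb, RT1-DMa and RT1-Db1, near the share over all genes (10.6%). In air, RT1-N2 was the 1 member of 31 lower in ADREX without overlap, not above the share over all genes (5.03%).

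RT1-DMa and RT1-DMb make the DM molecule, which exchanges the invariant chain fragment for peptide. RT1-DMa ranged from 30.1 to 57.5 normalized counts in SHAM air, 42.8 to 45.7 in SHAM ozone, 45.2 to 73.0 in ADREX air and 47.5 to 83.5 in ADREX ozone. RT1-DMb ranged from 37.2 to 110 in SHAM air, 64.9 to 84.9 in SHAM ozone, 99.6 to 160 in ADREX air and 73.4 to 137 in ADREX ozone. Neither passed the test in either exposure. The log2 changes of RT1-DMb were 0.98 ± 0.31 in air (adjusted p = 0.0963) and 0.61 ± 0.31 under ozone (adjusted p = 0.195), and those of RT1-DMa were 0.39 ± 0.25 (adjusted p = 0.383) and 0.54 ± 0.25 (adjusted p = 0.153). RT1-DOa and RT1-DOb, whose product restrains DM, were too low to test, at 1 to 14 and 1 to 26 reads in a library.

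Ciita, the class II transactivator, was at 77.4, 62.5, 50.0 and 98.3 normalized counts in SHAM air and at 64.9, 75.8, 62.0 and 57.5 in SHAM ozone. It was at 178, 123, 87.9 and 67.3 in ADREX air and at 161, 64.9, 76.8 and 177 in ADREX ozone. In each ADREX group, 2 libraries stood above every SHAM library of either exposure and the other two inside that SHAM range. The log2 change was 0.60 ± 0.34 in air (adjusted p = 0.328) and 0.75 ± 0.34 under ozone (adjusted p = 0.151), and neither passed the test.

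The class II calls varied with the libraries and settings used. Without SHAM air 2, SHAM air 4 and ADREX ozone 84, the libraries richest in hepatocyte markers, no member was called in air by limma (6 had an unadjusted p under 0.05), with 77 genes called in all, and 8 members rose under ozone, with 1793 genes called in all. RT1-Bb in air then changed by 0.74 (adjusted p = 0.108), RT1-Db1 by 0.59 (adjusted p = 0.179) and Cd74 by 0.71 (adjusted p = 0.163), while RT1-Da under ozone reached 1.13 (adjusted p = 0.0305). Without the 3 libraries richest in neural markers, 4 members rose in air and none was called under ozone (5 had an unadjusted p under 0.05), where RT1-Db1 was at 0.94 (adjusted p = 0.0587) and RT1-Bb at 0.74 (adjusted p = 0.105). Under ozone, 502 genes were then called in all, against 1601 with every library. Leaving out 1 library at a time, RT1-Bb passed the test in both exposures and RT1-Db1 passed it under ozone in all 16 refits. The others lost calls. Cd74 in air had an adjusted p of 0.0733 without SHAM air 2, 0.0692 without ADREX air 65, 0.0548 without ADREX air 66 and 0.0618 without ADREX air 68, as well as 0.0751 with the groups of the comparison only and 0.0845 with the neural score in the fit. RT1-Db1 in air lost its call without SHAM air 2 (0.0738), SHAM air 4 (0.0698), ADREX air 65 (0.0703), ADREX air 66 (0.0561) or ADREX air 68 (0.0582), with the groups of the comparison only (0.0709) and with the neural score (0.0728). Cd74 under ozone lost it without SHAM ozone 17, 18 or 20 or any 1 ADREX ozone library, at adjusted p from 0.0511 (ADREX ozone 84) to 0.136 (SHAM ozone 20). It also lost it with no filter on low values (0.0568), TMM (0.0680), median of ratios (0.0557), edgeR (0.0769), the neural score (0.150) and without the libraries highest in neural markers (0.251), 13 of 27 settings in all. RT1-Ba under ozone lost it without SHAM air 2 or 4, SHAM ozone 17, 19 or 20, ADREX air 66 or 68, or ADREX ozone 81, 82 or 83, at adjusted p from 0.0527 (ADREX air 68) to 0.139 (SHAM ozone 20). It also lost it with no filter (0.0600), TMM (0.0715), median of ratios (0.0637), edgeR (0.0552), the groups of the comparison only (0.0711), the neural score (0.138) and without the libraries highest in neural markers (0.275), 17 of 27 settings in all. In air, where they missed the threshold, RT1-Ba and RT1-Da each passed in 7 of 27 other settings. Each log2 change of these genes stayed above 0 in every setting tried.

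Marker lists of cells that make class II, and of other liver cells, are given beside the class II genes. The summed class II members ran from 285 to 533 RPM in SHAM air, 452 to 697 in SHAM ozone, 575 to 1179 in ADREX air and 591 to 1458 in ADREX ozone. A list of 12 Kupffer cell genes summed to 621 to 866 RPM in SHAM air, 668 to 956 in SHAM ozone, 789 to 1585 in ADREX air and 794 to 1655 in ADREX ozone. Of its 11 genes tested, none passed in air (4 had an unadjusted p under 0.05, as had 20.2% of all genes). Under ozone, 3 were called higher in ADREX than in SHAM rats, as were 6.04% of all genes. They were C1qa, which starts the complement cascade, by 1.04 (adjusted p = 0.00103), C1qb by 0.74 (adjusted p = 0.0467), and Clec4f, a Kupffer cell lectin, by 0.78 (adjusted p = 0.0256). The median log2 change of the list was 0.44 in air and 0.31 under ozone, beside 0.04 and 0.11 for all genes. A list of 9 B cell genes summed to 6.46 to 12.5 RPM over the SHAM libraries and 12.5 to 23.2 over the ADREX libraries. The 1 gene of it that was tested, Cd22, an inhibitory receptor of B cells, had log2 changes of 0.98 in air (adjusted p = 0.0658) and 0.87 under ozone (adjusted p = 0.0511), and the defining B cell genes Cd79a and Ms4a1 had at most 15 and 17 reads in a library. Dendritic cell genes summed to 16.4 to 26.4 RPM in SHAM air, 18.3 to 21.3 in SHAM ozone, 17.2 to 40.7 in ADREX air and 21.9 to 29.3 in ADREX ozone, with 5 tested and none called (1 at an unadjusted p under 0.05 in air and 0 under ozone). T and NK cell genes summed to 22.3 to 43.9 RPM over the SHAM libraries and 38.6 to 67.7 over the ADREX libraries. Cd4 was by far the highest of them, at group means of 270 to 417 normalized counts. The T cell genes Cd3d, Cd3e and Cd3g had at most 3, 33 and 10 reads in a library. Of 6 list genes tested, 4 (Cd8a, Gzma, Nkg7 and Prf1) were called higher in ADREX than in SHAM under ozone, beside 6.04% of all genes. None passed in air (2 at an unadjusted p under 0.05, beside 20.2%). Sinusoidal endothelial genes summed to 297 to 552 RPM over the SHAM libraries and 326 to 768 over the ADREX libraries, with 9 tested and none called (2 and 1 at an unadjusted p under 0.05 in air and under ozone). The 10 hepatocyte genes, all tested, had mean sums of 184144 RPM for SHAM and 140161 RPM for ADREX libraries in air, and of 159908 and 157175 RPM under ozone. Of them, Apoa1, the main protein of high-density lipoprotein, was higher in ADREX by 1.56 in air (adjusted p = 0.0197) and by 1.41 under ozone (adjusted p = 0.0157). Cps1, the first enzyme of the urea cycle, was lower in ADREX by 1.09 under ozone (adjusted p = 0.00691). The part of these cells in the class II result was not tested.

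**Figure D2:**
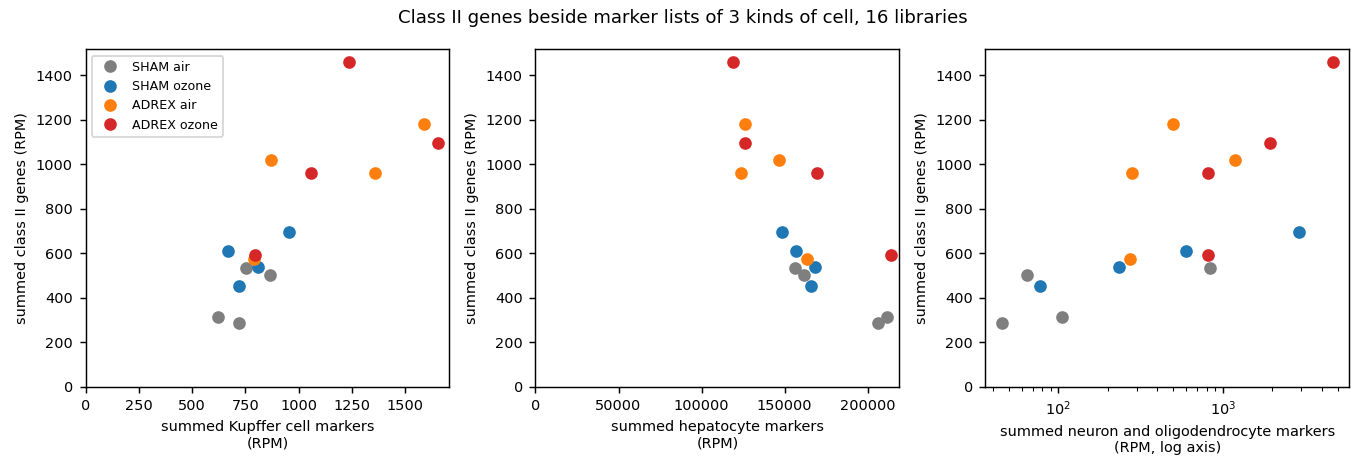
Summed class II members (y axes, RPM, linear from 0) against the summed Kupffer cell, hepatocyte and neuron and oligodendrocyte markers (x axes, RPM, the last on a log axis), 1 point per library. The lowest class II sums, 285 and 314 RPM in SHAM air 2 and 4, belong to libraries with high hepatocyte sums, and the highest, 1458 RPM in ADREX ozone 82, to the library with the highest neural sum. ADREX ozone 84, with the highest hepatocyte sum, was at 591 RPM, above every SHAM air library and lowest of its group. SHAM ozone 18, with the next highest neural sum, was at 697 RPM.

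Some MHC members were low together in the same libraries, and others were high there. In SHAM air 2 and 4, RT1-Da and RT1-DMb were at their lowest of the group, as in the plot of class II genes by library. RT1-A1, a classical class I heavy chain, was at 1531 and 1086 normalized counts in SHAM air 2 and 4 against 2891 and 2693 in SHAM air 1 and 3. Tapbp, tapasin, was at 190 and 124 in SHAM air 2 and 4 against 485 and 466 in SHAM air 1 and 3. In ADREX ozone 84, Tapbp was at 217 against 503 to 535 in the group's other libraries, RT1-A1 at 1910 against 2913 to 3410, and RT1-CE4, a further class I heavy chain, at 935 against 1303 to 1921. Other members were at their group's highest in these libraries: RT1-N2 at 2562, RT1-T24-4 at 1395 and RT1-CE6 at 68.2 in SHAM air 4, and RT1-N2 at 1825, RT1-S3 at 3851, RT1-T24-4 at 1144 and RT1-CE6 at 57.6 in ADREX ozone 84. These are the 3 libraries with the highest hepatocyte sums, and SHAM air 4 had the fewest reads of all libraries. The pattern was noticed after the values were seen, and the part of hepatocyte share or depth in it was not tested.

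Class I assembly genes showed no called difference in either ADREX comparison, with 1 of the 4 at an unadjusted p under 0.05 in air (Tapbp) and 1 under ozone (Tap2). B2m, the light chain, was at 29496, 28765, 36990 and 41149 normalized counts in SHAM air and at 30468, 30590, 43166 and 28020 in SHAM ozone. It was at 32799, 29527, 24557 and 34637 in ADREX air and at 32251, 41933, 32200 and 39560 in ADREX ozone. All 4 groups overlapped, with log2 changes of -0.16 ± 0.19 in air (adjusted p = 0.652) and 0.15 ± 0.19 under ozone (adjusted p = 0.624). Tap1, part of the peptide pump, was at 409, 312, 293 and 193 in SHAM air and at 296, 193, 280 and 226 in SHAM ozone. In ADREX air it was at 299, 228, 357 and 192, and in ADREX ozone at 287, 103, 238 and 279. Its groups overlapped throughout, at -0.16 ± 0.31 in air (adjusted p = 0.801) and -0.22 ± 0.31 under ozone (adjusted p = 0.667). The sign for Tap1 turned without SHAM air 1 in air (0.0073) and without ADREX ozone 82 under ozone (0.12), and in both with the neural score as a covariate. Tap2, the partner of Tap1 in the pump, ranged from 120 to 348 over the 16 libraries and changed by -0.57 ± 0.25 under ozone (adjusted p = 0.130). Tapbp changed by 0.93 ± 0.38 in air (adjusted p = 0.189) and 0.02 ± 0.38 under ozone (adjusted p = 0.983).

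Nlrc5, the class I transactivator, went the other way from Ciita in its values. It was at 214, 259, 149 and 259 normalized counts in SHAM air and at 240, 94.2, 211 and 212 in SHAM ozone. It was at 181, 121, 292 and 84.4 in ADREX air and at 97.2, 58.7, 92.2 and 93.5 in ADREX ozone. SHAM ozone 18, at 94.2, lay inside the ADREX ozone range and the other 3 SHAM ozone libraries above it. The log2 change under ozone was -1.08 ± 0.35 with an adjusted p of 0.0550, just short of the test. It also failed in 18 of 27 other settings, at adjusted p up to 0.188. It passed in 9, among them edgeR (adjusted p = 0.0371, with 12.4% of all genes called), DESeq2 (adjusted p = 0.0128, with 17.1% called) and the refits without SHAM ozone 18 (0.0168), SHAM air 3 (0.0468), ADREX air 67 (0.0307) or ADREX air 68 (0.0386). Over the 27 settings the log2 change under ozone ran from -1.39 to -0.62. In air the log2 change was -0.49 ± 0.35 (adjusted p = 0.437) and ran from -0.80 to -0.04 over the settings.

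No classical, RT1-CE or RT1-M heavy chain of class I passed the test between SHAM and ADREX rats. RT1-A1 and RT1-A2, the classical heavy chains, differed by 0.56 ± 0.26 (adjusted p = 0.248) and 0.09 ± 0.25 (adjusted p = 0.869) in air. Under ozone they differed by -0.09 ± 0.26 (adjusted p = 0.839) and 0.30 ± 0.25 (adjusted p = 0.441). Of the 9 RT1-CE members, 8 were tested and none passed in air or under ozone (none at an unadjusted p under 0.05 in either), with log2 changes from -0.42 to 0.50 in air and from -0.33 to 0.51 under ozone. Of the 10 RT1-M members, RT1-M2 and RT1-M3-1 were tested. RT1-M3-1, the counterpart of a mouse molecule that presents N-formylated peptides of bacteria and mitochondria, ranged from 24.1 to 51.3 normalized counts in SHAM air, 12.2 to 47.9 in SHAM ozone, 38.7 to 65.7 in ADREX air and 36.0 to 78.9 in ADREX ozone. It changed by 0.69 ± 0.37 in air (adjusted p = 0.302) and 1.09 ± 0.37 under ozone (adjusted p = 0.0647). RT1-M1-1-ps, RT1-M10-2-ps, RT1-M3-2-ps and RT1-M4 had 0 reads in every library, which allows up to 3 reads, or 3.14 to 6.02 normalized counts depending on the library. RT1-M10-4-ps had 1 read and RT1-M5 had 3 reads over all libraries. RT1-M6-1 and RT1-M6-2 had at most 17 and 24 reads in a library.

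**Figure D3:**
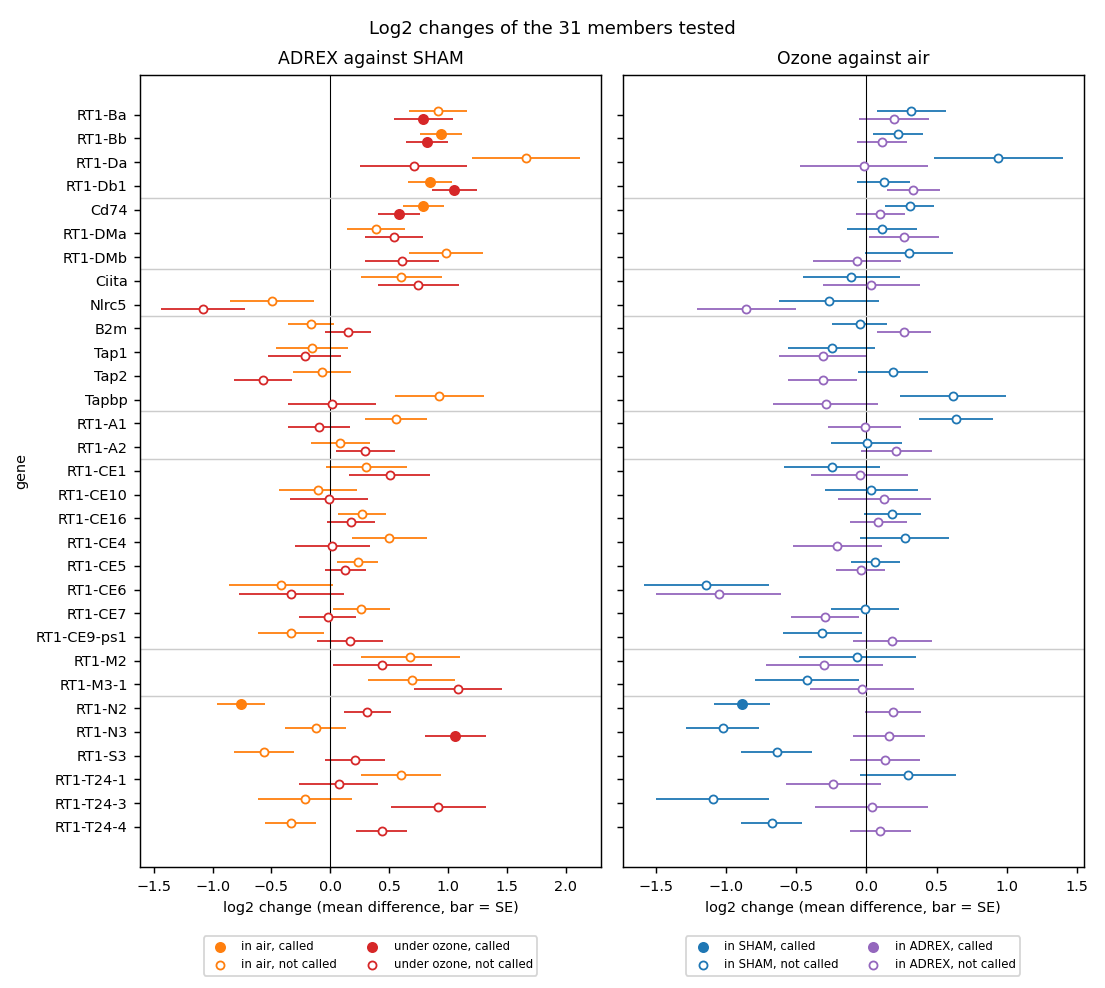
Log2 change with its SE (x axes) of the 31 members tested (rows, grouped by role and separated by grey lines), for ADREX against SHAM (left) and ozone against air (right). Filled points passed an adjusted p of 0.05. The class II rows lie to the right of 0 on the left, and 5 of the 6 bottom rows, RT1-N2 to RT1-T24-4, lie to the left of 0 for ozone in SHAM rats.

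With ozone in SHAM rats, the only called change of a member was a fall of RT1-N2, a class I gene outside the classical set. The question here is what 4 hours of ozone did to the liver when the adrenal glands were in place. RT1-N2 was the 1 member called (down) of 31, beside 1.58% of all genes called (0.633% down). Of the 31, 7 had an unadjusted p under 0.05, near the share over all genes (18.4%). The call of RT1-N2 was lost in 13 of 27 other settings. It was at 2536, 2247, 1745 and 2562 normalized counts in SHAM air and at 1380, 1070, 1279 and 1155 in SHAM ozone. It was at 1717, 1252, 1589 and 909 in ADREX air and at 1653, 1178, 1470 and 1825 in ADREX ozone. SHAM air stood above both SHAM ozone and ADREX air without overlap. RT1-N2 fell by 0.89 on the log2 scale with ozone in SHAM rats (SE 0.20, adjusted p = 0.0358), and fell by 0.76 in ADREX against SHAM rats in air (SE 0.20, adjusted p = 0.0473). In ADREX rats the ozone change was 0.19 ± 0.20 (adjusted p = 0.671). The difference between the 2 ozone changes was 1.07 ± 0.28, with an adjusted p of 0.146 that did not pass. Both falls and this difference use the same SHAM air libraries, so they are not independent results.

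RT1-N3, RT1-S3, RT1-T24-4, RT1-T24-3 and RT1-T24-1 follow RT1-N2 on chromosome 20 in the reference order, with RT1-S2 between RT1-N2 and RT1-N3. RT1-N3 was at 168, 154, 153 and 144 normalized counts in SHAM air and at 122, 56.3, 99.0 and 47.2 in SHAM ozone. It was at 186, 136, 118 and 136 in ADREX air and at 175, 162, 121 and 184 in ADREX ozone. All SHAM ozone libraries lay below all SHAM air libraries, and SHAM ozone 17 was level with ADREX ozone 83. The ozone change of RT1-N3 in SHAM rats was -1.03 ± 0.26 (adjusted p = 0.0583), and RT1-N3 rose by 1.06 ± 0.26 in ADREX against SHAM rats under ozone (adjusted p = 0.0150, 2.09-fold). These results share the SHAM ozone libraries and are not independent. RT1-T24-3, at 75.7 to 99.7 in SHAM air and 17.1 to 58.9 in SHAM ozone, did not overlap between these groups either (-1.10 ± 0.40, adjusted p = 0.173). RT1-T24-4 changed by -0.68 ± 0.22 (adjusted p = 0.122) and RT1-S3 by -0.64 ± 0.25 (adjusted p = 0.199) with ozone in SHAM rats, while RT1-T24-1 was at 0.30 ± 0.34 (adjusted p = 0.657). With RT1-CE6 (-1.14 ± 0.45, adjusted p = 0.194), 4 of the 31 members were lower in SHAM ozone without overlap, beside 5.93% of all genes. Over the 6 members tested of the RT1-N, RT1-S and RT1-T group, the median log2 ozone change was -0.78 in SHAM rats and 0.12 in ADREX rats, where the medians of all genes were 0.01 and 0.06. For ozone in SHAM rats, all 9 sinusoidal endothelial genes tested were below 0, with a median of -0.46 (3 at an unadjusted p under 0.05), and the 6 T and NK cell genes tested had a median of -0.42 (2 at an unadjusted p under 0.05), with Cd8a and Nkg7 lower without overlap. All 23 neuron and oligodendrocyte genes tested were above 0, with a median of 1.99 (6 at an unadjusted p under 0.05). None of these marker genes was called in that comparison, beside 18.4% of all genes at an unadjusted p under 0.05, and their part in the result was not tested. RT1-S2 and RT1-T18 had at most 2 and 3 reads in a library. Neighbours of similar sequence can share reads, so these genes may not be separate measurements.

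**Figure D4:**
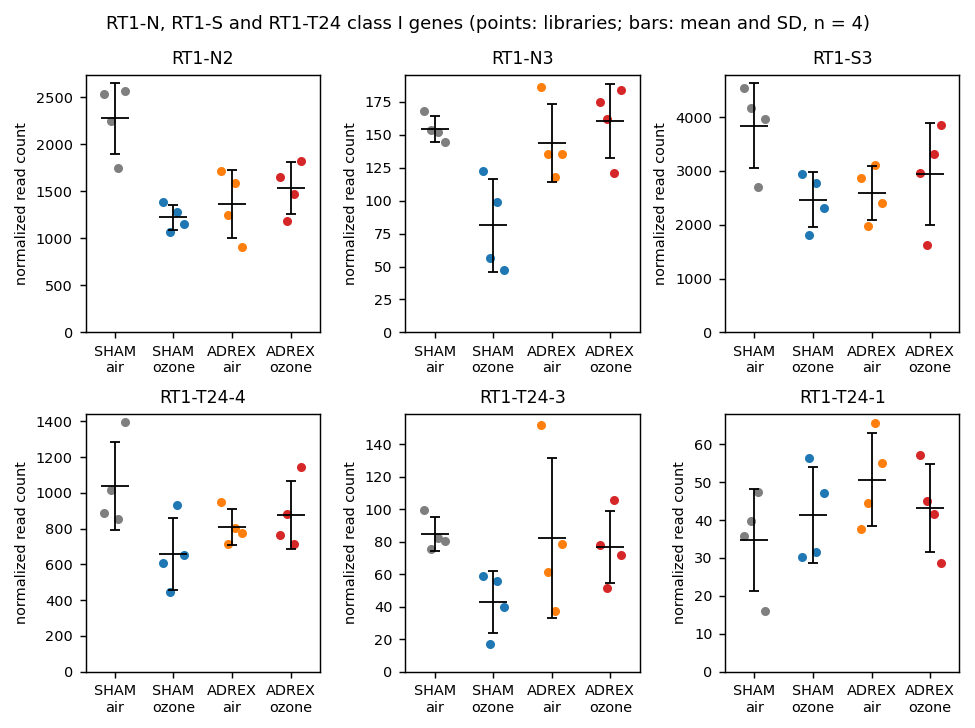
Normalized read count (y axes, linear, from 0) of the 6 tested RT1-N, RT1-S and RT1-T24 genes in each library (points) of the 4 groups, with the mean and SD (n = 4). SHAM ozone lies below SHAM air without overlap for RT1-N2, RT1-N3 and RT1-T24-3, and RT1-N2 in ADREX air also lies below SHAM air.

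These class I calls varied with the libraries and settings used. RT1-N2 with ozone in SHAM rats lost its call without SHAM air 1, 2 or 4 or any 1 SHAM ozone library, at adjusted p from 0.0507 (SHAM ozone 19) to 0.121 (SHAM ozone 20), while its log2 change ran from -1.01 to -0.82 over the 16 refits. It also lost the call under TMM scaling (adjusted p = 0.0561), median-of-ratios scaling (0.0504), edgeR (0.0540), the neural score as a covariate (0.0821) and with the 3 libraries highest in neural markers left out (0.104). In air, ADREX against SHAM, it lost the call without SHAM air 1, 2 or 4, any 1 SHAM ozone library, ADREX air 66 or 68, or ADREX ozone 81 or 83, at adjusted p from 0.0559 (SHAM ozone 18) to 0.142 (SHAM air 4), while its log2 change ran from -0.88 to -0.58. There it also lost the call with no filter on low values (adjusted p = 0.0630), under TMM (0.0650), median of ratios (0.0589), edgeR (0.0777), the groups of the comparison only (0.128), the neural score (0.169) and without the libraries highest in neural markers (0.0581). RT1-N3 under ozone lost its call without SHAM ozone 20 (adjusted p = 0.0563), with the groups of the comparison only (0.0532) and with the 3 libraries highest in neural markers left out (0.186). Without the 3 libraries richest in hepatocyte markers, RT1-N2 had an adjusted p of 0.283 with ozone in SHAM rats and 0.335 in air, ADREX against SHAM.

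Class II members had no called ozone change in either operation group. In SHAM rats all 7 tested had log2 changes above 0 (from 0.11 for RT1-DMa to 0.94 for RT1-Da, adjusted p = 0.286 for the latter), with a median of 0.31, beside 51.0% of all genes above 0. None had an unadjusted p under 0.05 in either group. In ADREX rats 5 of the 7 were above 0, with a median of 0.11, beside 56.6% of all genes. In ADREX rats no member was called for ozone by limma, where 0.125% of all genes were called. No member was called by edgeR (0.383% of all genes) or DESeq2 (4.46%) either, and 2 had an unadjusted limma p under 0.05 (17.8% of all genes). No member was without overlap between the ADREX groups, beside 9.97% of all genes. The 2 were Nlrc5 (-0.86 ± 0.35, adjusted p = 0.231) and RT1-CE6 (-1.05 ± 0.45, adjusted p = 0.239). For the difference between the ozone changes of ADREX and SHAM rats, no member passed by limma (0.109% of all genes), edgeR (0.188%) or DESeq2 (1.94%). An unadjusted limma p under 0.05 was found for 4 of the 31 members tested, no more than the share over all genes (12.9%). Those 4, RT1-N2, RT1-N3, RT1-S3 and RT1-T24-4, all belong to the RT1-N, RT1-S and RT1-T group, with values of 1.07, 1.19, 0.77 and 0.77 and adjusted p from 0.146 to 0.377. Named here for their small number, they were picked after their values were seen. They use the same libraries and may share reads, so they may not be separate measurements.

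The wider antigen presentation pathway was read from a list of 47 genes, among them the immunoproteasome, peptide-loading chaperones, lysosomal proteases, interferon signalling and the X and Y box factors. Of these, 45 were in the table by that symbol and 41 were tested. None was called for ozone in SHAM rats, for ozone in ADREX rats or for ADREX against SHAM in air. In these, 7, 4 and 12 had an unadjusted p under 0.05, beside 18.4%, 17.8% and 20.2% of all genes. Under ozone, 5 of the 41 were called higher in ADREX and none lower, beside 12.5% of all genes called (6.04% up and 6.48% down). Of the 41, 11 had an unadjusted p under 0.05, beside 31.2% of all genes. The total called was thus near the share over all genes in either direction. These calls were examined in the main setting only. Spi1, the macrophage and B cell transcription factor PU.1, rose by 1.61 ± 0.34 (adjusted p = 0.00735), from 16.3 to 17.7 normalized counts in SHAM ozone to 50.4 to 56.0 in ADREX ozone. Ifi30, which reduces disulfide bonds of antigens in lysosomes, rose by 0.66 ± 0.17 (adjusted p = 0.0195). Cd86, the costimulatory ligand of antigen-presenting cells, rose by 1.02 ± 0.27 (adjusted p = 0.0225). Irf8, a factor of macrophage and dendritic cell development, rose by 0.74 ± 0.21 (adjusted p = 0.0294), and Lgmn, an endolysosomal protease that trims antigens, by 0.73 ± 0.23 (adjusted p = 0.0492). The median of the 41 was 0.07 in air and 0.12 under ozone, beside 0.04 and 0.11 for all genes.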

How the data were processed

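Liver mRNA was sequenced in 16 libraries. Per the labels' protocols, libraries were made with a Wafergen PrepX kit and run on an Illumina NextSeq instrument. Partek, DESeq2 and build rn6 are named in the submitters' processing notes, without versions. No aligner, counting method or annotation is given in the sources used here. Values in the deposited table are a signal: reads counted per gene and divided, by the authors, by 1 size factor per library. Whole reads were recovered from the steps, with 100% of values whole to within 0.01 (largest deviation 0.000427). RPM values are recovered reads per 1000000. In the table, 2206 genes had 0 reads in all libraries. The upper limit given for 0 reads covers counting error only, since reads carry no molecular identifiers, while SEs come from the spread between libraries.

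Groups followed the titles. The main test was limma (version 3.58.1, R 4.3.3) with a trend on log2(normalized count + 1), 4 group means over all 16 libraries, with 12 residual degrees of freedom, and Benjamini-Hochberg adjustment over the 12791 genes with a mean of at least 14.7. It was also run on simulated data with the same relative spread for every gene and no difference in cell content between libraries. That run therefore cannot show how calls depend on the libraries here. Alternatives were a pseudocount of 10, other filters, TMM or median-of-ratios scaling, DESeq2 1.42.0 and edgeR 4.0.16 run on those reads, groups of the comparison only, a neural marker score as covariate, and leaving out libraries. Values of every library are given for members called in at least 1 of the 5 comparisons and for RT1-Da, RT1-Ba, Cd74, B2m, Ciita, Nlrc5 and Tap1, and the rest are given by range and count. Other pathway genes are named where called. The members and lists were chosen with earlier results of these data known. Promoter windows and gene order are from RefSeq tables of build GRCr8, with no genome of build rn6 used here. Of the B cell marker list, 1 gene is not reported here and its values are left out of the sums.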

Additional observations from a re-analysis of the deposited data

Results flagged for a closer look

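In 124 checks, 1 for each tested member in each group of 4 libraries, 9 found a library whose gap to the nearest of the others exceeded Dixon's limit as a share of the group's range, and chance flags about 1 in 20 groups. SHAM ozone 19 accounted for 4 of them. It had the highest B2m of its group (43166 normalized counts, others 28020 to 30590), the highest RT1-CE4 (2209, others 1117 to 1251) and RT1-CE5 (1860, others 1227 to 1292), and the lowest RT1-A2 (739, others 1375 to 1497). ADREX ozone 84 had the lowest Tapbp (217, others 503 to 535) and the highest RT1-CE6 (57.6, others 12.6 to 13.2). In ADREX ozone 82, Nlrc5 was lowest at 58.7, where the others were at 92.2 to 97.2. RT1-CE1 was lowest in SHAM air 4, at 40.1 against 134 to 145. RT1-CE5 was highest in ADREX air 65, at 1827 against 1468 to 1497. By limma, no gene listed here was called in any of the 5 comparisons.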

How the results depend on the processing

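No paired analysis was possible because the 4 groups share no replicate number. For ADREX against SHAM in air, 4 members were called, and 1 was called with the groups of the comparison only, 1 with the neural score as covariate and 0 without the 3 libraries richest in hepatocyte markers. For ADREX against SHAM under ozone, 5 were called, and 3 with no filter on low values, 3 with the groups of the comparison only, 3 with the neural score as covariate, 0 without the 3 libraries richest in neural markers and 8 without the 3 richest in hepatocyte markers. For ozone in SHAM rats, 1 was called, and 0 under TMM, 0 under median of ratios, 0 by edgeR, 2 by DESeq2, 0 with the neural score, 0 without the 3 libraries richest in neural markers and 0 without the 3 richest in hepatocyte markers. Leaving out 1 library at a time gave 1 to 6 members in air, 2 to 6 under ozone and 0 to 2 for ozone in SHAM rats, and 0 to 0 for ozone in ADREX rats and for the difference. The count in air fell to 1 without SHAM air 2, ADREX air 66 or ADREX air 68 and to 2 without SHAM air 4 or ADREX air 65. Under ozone it fell to 2 without SHAM ozone 20 and to 3 without SHAM ozone 17 or ADREX ozone 81, 82 or 83. For ozone in SHAM rats it was 0 without SHAM air 1, 2 or 4 or SHAM ozone 18 or 20, and 2 without SHAM air 3 or SHAM ozone 19. The Tap1 log2 change turned positive with the neural score in air (0.075) and under ozone (0.017). With 1 library left out it ran from -0.35 to 0.0073 in air (above 0 without SHAM air 1) and from -0.37 to 0.12 under ozone (above 0 without ADREX ozone 82). Under ozone, TMM moved the median of all genes from 0.11 to 0.01, called 3 members up and 1 down in place of 5 up and 0 down, and moved the share of all calls that were higher in ADREX from 48.2% to 31.9% (35.3% under median of ratios). Beyond fewer libraries or other scaling factors, the cause of these shifts was not tested. Low counts limit the 15 members not tested.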
